A study of Mus musculus with 56 samples.

Results

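Apolipoproteins are the protein components of plasma lipoproteins, the particles that carry triglyceride, cholesterol and phospholipid through the blood, and the liver secretes most of them. Apob is the structural protein of very low density lipoprotein (VLDL) and stays with its particle, whereas the smaller apolipoproteins exchange between particles, hold HDL together, serve as receptor ligands, or activate or restrain the lipases that empty the particles. Lipoprotein metabolism is a classical target of thyroid hormone (T3), which acts through the nuclear thyroid hormone receptor (TR).

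The 10 mouse genes Apoa1, Apoa2, Apoa4, Apoa5, Apob, Apoc1, Apoc2, Apoc3, Apoe and Apom were taken by name from a liver RNA-seq table of 23813 genes, with the first listed RefSeq transcript used for each gene, and all 10 were found. The table holds 12 livers of male mice in 3 groups of 4. Hypothyroid WT mice received a low iodine diet containing propylthiouracil (PTU), which blocks thyroid hormone synthesis, hyperthyroid WT mice received the same diet and T3 injections in the last days before sacrifice, and hypothyroid L-NCOR1ΔID mice (L-NCORdeltaID in the labels) received the diet and no T3. L-NCOR1ΔID mice carry, in the liver, a form of the corepressor NCOR1 that lacks the domains by which it contacts TR, so that the mutant is a model of a lost contact in liver and not of lost NCOR1 protein. Their background was mixed C57BL/6;129S, and the methods name a WT background only for littermates of another mutant strain. By the group averages of the paper, the mutants were younger and had heavier livers than both WT groups. The part of background and age in the comparisons with mutant livers was not tested. All 3 groups were thus PTU fed, and no untreated euthyroid group was analysed here. Levels are RPKM, read numbers normalised for transcript length and for the uniquely aligned reads of each library, which allows levels to be compared between genes.

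All 10 genes were well above the limit of detection. The smallest steps between RPKM values correspond to about 21315000 to 26080000 reads per library in the hyperthyroid group, 29090000 to 38190000 in the hypothyroid WT group and 38020000 to 42670000 in the mutant group, and the lowest value of any of the genes still rested on about 1376 reads per kilobase. The labels of the hyperthyroid group were checked on 2 TR target genes: Thrsp was at 322 ± 128 RPKM (SD, n = 4) in hypothyroid and 1597 ± 652 RPKM in hyperthyroid WT livers, and Dio1 at 18.5 ± 26.3 and 544 ± 74.7 RPKM. Ncor1 itself was at 14.7 ± 0.665 RPKM in hypothyroid WT and 13 ± 0.844 RPKM in L-NCOR1ΔID livers, but a total over the transcript does not test a deletion of some exons. Albumin (Alb), the defining hepatocyte transcript, was at 31804 ± 4200.3 RPKM in hypothyroid WT livers. The third hyperthyroid library stood apart by exocrine pancreas transcripts, with 165 RPKM of Prss2 against at most 2.76 in each of the other 11 libraries, and the calls of the 10 genes and of the other gene lists were also made without it.

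Members of the family lie in a pair of gene clusters and at 3 further loci. On chromosome 9 of mm9, Apoa1 (chr9:46036663-46038549, plus strand), Apoc3 (chr9:46041016-46043719, minus strand), Apoa4 (chr9:46048779-46051542, plus strand) and Apoa5 (chr9:46076716-46080002, plus strand) follow each other, with 5060 bases between the start sites of Apoc3 and Apoa4 and 27937 bases between those of Apoa4 and Apoa5. On chromosome 7, Apoe (chr7:20281458-20284515), Apoc1 (chr7:20274833-20278007) and Apoc2 (chr7:20256928-20266772) lie on the minus strand. The annotated Apoc2 gene overlaps Apoc4, so that reads of these 2 genes may not be separable, and Apoa4 overlaps the predicted gene Gm10680. The annotated start sites of Apoc2 and Apoc4 lie 7 bases apart on the same strand. The sequence and acetylated regions given below for the Apoc2 start site therefore describe the Apoc4 start site as well. Apoa2 (chr1:173155185-173156510), Apob (chr12:7984454-8023641) and Apom (chr17:35265942-35268995) stand alone.

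The 250 bases of mm9 before the annotated start site are shown for the 3 genes whose levels moved furthest with T3, Apoa4, Apoa2 and Apoa5, and for Apoc3, the neighbour of Apoa4. Capitals mark the nuclear receptor half-site AGGTCA, the core of the element that TR binds, or the TATA box TATAAA, on either strand (TGACCT is the half-site on the opposite strand). Each sequence runs 5′ to 3′ on the strand of its gene, at chr9:46048529-46048778 (plus strand), chr1:173154935-173155184 (plus strand), chr9:46076466-46076715 (plus strand) and chr9:46043720-46043969 (minus strand), in this order.
Apoa4: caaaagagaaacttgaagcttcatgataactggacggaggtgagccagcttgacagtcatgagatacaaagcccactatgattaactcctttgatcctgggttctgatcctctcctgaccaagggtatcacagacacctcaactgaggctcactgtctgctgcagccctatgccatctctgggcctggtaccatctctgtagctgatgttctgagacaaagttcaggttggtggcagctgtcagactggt
Apoa2: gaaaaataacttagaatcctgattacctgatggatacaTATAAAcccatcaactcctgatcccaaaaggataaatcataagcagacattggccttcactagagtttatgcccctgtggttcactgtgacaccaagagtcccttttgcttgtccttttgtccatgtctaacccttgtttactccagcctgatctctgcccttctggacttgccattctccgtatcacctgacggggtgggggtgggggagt
Apoa5: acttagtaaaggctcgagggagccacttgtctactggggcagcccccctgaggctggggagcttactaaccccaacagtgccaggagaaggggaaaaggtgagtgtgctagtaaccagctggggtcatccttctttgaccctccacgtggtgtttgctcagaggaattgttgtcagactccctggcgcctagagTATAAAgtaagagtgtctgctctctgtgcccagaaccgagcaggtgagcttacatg
Apoc3: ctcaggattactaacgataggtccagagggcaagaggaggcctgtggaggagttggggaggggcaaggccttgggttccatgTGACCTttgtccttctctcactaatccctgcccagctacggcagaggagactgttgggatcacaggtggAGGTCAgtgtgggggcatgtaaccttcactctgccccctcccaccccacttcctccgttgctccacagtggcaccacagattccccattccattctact
The half-site was found in 2 of the 10 windows, those of Apoc3 and Apoc2, and in 12.2% of the windows of the same length before 19904 genes. The Apoc2 window also lies just before the Apoc4 start site, so that its half-site cannot be assigned to Apoc2 alone. The Apoc3 window holds it at -168 on the opposite strand and at -99 on the strand of the gene, counted from the start site. TATAAA was found before Apoa2 at -212, Apoa5 at -56 and Apob at -31, and in 12.2% of all windows. Direct repeats of AGGTCA with 4 bases (DR4) or 1 base (DR1) between the copies were in none of the 10 windows, and in 0 and 10 of the 19904 windows. A match is a description of these letters and not a site of binding.

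The study also mapped regions of H3 acetylation (H3K9Ac and H3K27Ac), the mark of active promoters and enhancers. The paper quantified both marks at these regions in hypo- and hyperthyroid livers, and those values were not used here. Only the merged list of 37200 regions was used, which holds coordinates and no value per sample. All 10 start sites lay inside such a region, compared with 56.17% of 19904 genes and with 96.22% of the 1005 genes of at least 50 RPKM. The 10 start sites fell into 6 regions. One region of 42766 bases (chr7:20248361-20291126) covered Apoe, Apoc1 and Apoc2 together, and one of 35493 bases (chr9:46020641-46056133) covered Apoa1, Apoc3 and Apoa4, whereas Apoa5 lay in a region of its own of 12050 bases (chr9:46074745-46086794). The regions over Apoa2, Apob and Apom measured 34154, 18587 and 8454 bases, and the median of all 37200 regions was 2537 bases. The region over the start site had a median length of 3879 bases over all genes and of 9964 bases over the genes of at least 50 RPKM, so that the region of Apom was shorter than that of the typical abundant gene. Over the 10 genes the median was 35493 bases, with the shared regions counted once for each gene. Within 100 kb of the start sites a median of 10.5 regions was found for the 10 genes, compared with 6 for all genes and 9 for the genes of at least 50 RPKM. Within 50 kb the median was 5 for the 10 genes and also 5 for the genes of at least 50 RPKM. Since clustered genes share regions, these counts are not independent, and they carry no information on hypo- against hyperthyroid livers.

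**Figure D1:**
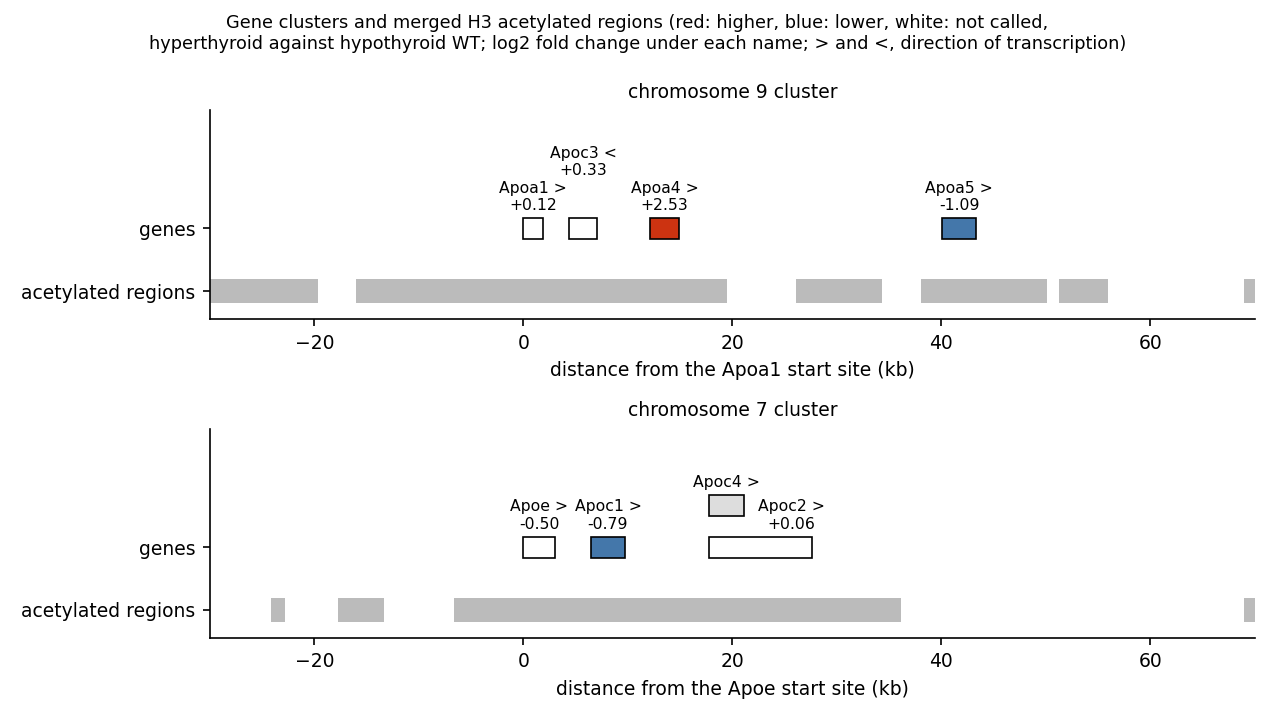
Maps of the Apoa1/Apoc3/Apoa4/Apoa5 cluster (top) and the Apoe/Apoc1/Apoc2 cluster (bottom), with the distance in kb from the Apoa1 or Apoe start site on the horizontal axis, genes as boxes and merged H3 acetylated regions as grey bars. The log2 fold change of hyperthyroid against hypothyroid WT is printed above each gene, and 1 region of 35493 bases holds Apoa4 at +2.53 next to Apoc3 at +0.33 and Apoa1 at +0.12.

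In hypothyroid WT livers the apolipoprotein genes were among the most abundant transcripts, and together they held 8.27% ± 0.58 (SD, n = 4) of the summed RPKM of all genes. Apoe, which mediates the uptake of remnant particles, ranked 2 of all genes at 12396 ± 866 RPKM (SD, n = 4), and Apoa2, a structural HDL protein, ranked 3 at 9397 ± 1529 RPKM. Apoa1, the main HDL protein, ranked 8 at 4224 ± 523 RPKM and Apoc1, a small exchangeable protein that restrains lipases, ranked 9 at 3927 ± 576 RPKM. The ranges of Apoa1 and Apoc1 overlapped, and the order of these 2 neighbours was therefore not resolved.

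A second tier followed below. Apoc3, an inhibitor of lipoprotein lipase and of particle uptake, was at 1624 ± 168 RPKM, Apoa5, which promotes triglyceride clearance, at 679 ± 97.1 RPKM, and Apob at 547 ± 37.3 RPKM. Apom, the HDL carrier of sphingosine 1-phosphate, was at 169 ± 8.71 RPKM and Apoc2, the activator of lipoprotein lipase, at 140.4 ± 16 RPKM. Apoa4, a protein of triglyceride-rich particles that is best known from the intestine, was the lowest of the 10 genes at 56.9 ± 9.70 RPKM, at rank 904. The pairs Apoa5 and Apob, and Apom and Apoc2, overlapped in range in this group, although the first of each pair was the higher gene in each of the 4 livers.

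**Figure D2:**
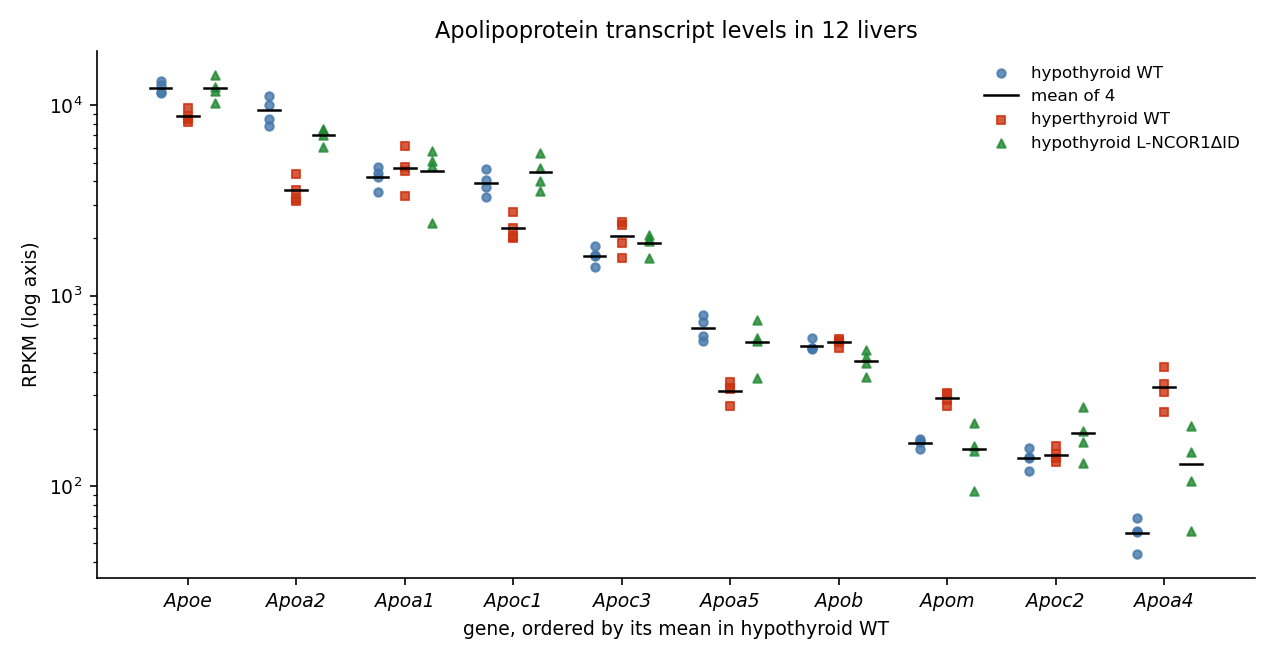
RPKM on a log axis of the 10 apolipoprotein genes, ordered by their mean in hypothyroid WT, in each of the 12 livers (points) with the mean of each group of 4 (bars). Apoa4 rose from 56.9 to 330.4 RPKM in hyperthyroid livers, Apoa2 fell from 9397 to 3587 RPKM, and the mutant livers mostly lay with the hypothyroid WT livers.

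The first comparison asked which apolipoprotein genes respond to T3 in WT liver. T3 moved the family in both directions: Apoa4 and Apom rose, Apoa2, Apoa5 and Apoc1 fell, and Apob, Apoa1, Apoc2, Apoc3 and Apoe did not pass the test. Thus 5 of the 10 genes were called, 2 higher and 3 lower, by limma on log2(RPKM + 0.1) with a Benjamini-Hochberg adjusted p under 0.01 over the 13941 genes tested, which called 32.2% of all genes (24.5% higher and 7.71% lower). That balance over all genes depended on the scaling, since with libraries scaled by the median of ratios 12.3% were called higher and 14% lower, while the calls of the 10 genes stayed at 2 higher and 3 lower. When a change of more than 1 on the log2 scale was also required, the criterion by which the study defined T3-induced genes, 3 of the 10 were left (Apoa4 higher, Apoa2 and Apoa5 lower), beside 11.8% of all genes (8.28% higher and 3.47% lower). The median of all genes was itself 0.23 higher on the log2 scale in hyperthyroid livers, and the differences of the 10 genes are also given relative to it.

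Apoa4 showed the largest difference of the family on the log2 scale. Its level was 44.1, 58.0, 67.7 and 57.7 RPKM in the 4 hypothyroid livers and 343, 422, 311 and 246 RPKM in the 4 hyperthyroid livers. The groups were far apart, and the lowest hyperthyroid liver was well over the highest hypothyroid liver. The change was 5.76-fold, 2.53 ± 0.18 (SE) on the log2 scale with an adjusted p of 1.57e-05 (limma), or 2.29 relative to the median gene. Apoa4 thereby went from rank 904 to rank 158 of all genes, and overlapped in range with Apoa5, which had been the much higher gene in hypothyroid livers.

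Apom rose with little spread among livers. It was at 157, 170.4, 177 and 172 RPKM in hypothyroid and at 284, 265, 310.3 and 306 RPKM in hyperthyroid livers. The groups did not overlap, and the log2 fold change was 0.78 ± 0.08 (SE) with an adjusted p of 9.02e-05 (limma), or 0.55 relative to the median gene. The ranges of Apom and Apoc2, which overlapped in hypothyroid livers, were separate in hyperthyroid livers.

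Apoa2 showed the largest decrease, both in RPKM and on the log2 scale. Its values were 10015, 8505, 7830.4 and 11237 RPKM in hypothyroid and 3590.1, 3158, 3228 and 4369.9 RPKM in hyperthyroid livers. Every hyperthyroid liver was below every hypothyroid liver, and the level was 0.382 of that in hypothyroid livers (log2 fold change -1.39 ± 0.20 SE, adjusted p = 5.75e-04, limma, and -1.62 relative to the median gene). Apoa1, the other main HDL protein, thus came to exceed Apoa2 in each of the 4 hyperthyroid livers, the reverse of the order in hypothyroid livers.

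Apoa5 fell from 789, 618, 580.1 and 730.4 RPKM to 264, 326, 351 and 329 RPKM. The ranges were well separated, and the log2 fold change was -1.09 ± 0.13 (SE) with an adjusted p of 2.12e-04 (limma), or -1.33 relative to the median gene. Its neighbours on chromosome 9 did not share this direction, since Apoa4 rose and Apoa1 and Apoc3 were not called.

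Apoc1 fell from 4059.6, 3707, 3292 and 4651 RPKM to 2277, 2042, 1999.8 and 2754 RPKM. The groups did not overlap and the log2 fold change was -0.79 ± 0.17 (SE, adjusted p = 0.00464, limma), or -1.03 relative to the median gene, and this was the 1 call of the 5 that did not hold on leaving out single libraries. It was lost, with an adjusted p between 0.01 and 0.0162, on leaving out any one of hypothyroid replicates 1, 2 and 4 and hyperthyroid replicates 1, 2 and 3, where the log2 fold change ran from -0.82 to -0.71. The other 4 calls held on leaving out each library in turn, the third hyperthyroid library included.

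Apoe, next to Apoc1 in the same acetylated region, was lower in all hyperthyroid livers but was not called. It was at 12704, 11661, 11737 and 13482 RPKM in hypothyroid and 8434, 9670.3, 8176 and 8816 RPKM in hyperthyroid livers. The groups did not overlap, as for 46.6% of all genes tested (35.8% higher and 10.8% lower), and the log2 fold change of -0.50 ± 0.20 (SE) had an adjusted p of 0.0642 (limma), with -0.73 relative to the median gene. The call depended on how the test pooled the spread over genes: without a variance trend the adjusted p was 0.00266, and with genes under a mean of 1 RPKM left out it was 0.00692. Apoe is also made by macrophages, and this was a bulk measurement, in which fewer cells of a type and less RNA per cell cannot be told apart.

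For the remaining 4 genes the groups overlapped. Apob was at 547 ± 37.3 and 569.5 ± 26.9 RPKM (SD, n = 4 each), and the 95% interval of its log2 fold change, -0.14 to 0.26, was the second narrowest of the 10, after that of Apom. Apoc2 was at 140.4 ± 16 and 146 ± 12.3 RPKM, with an interval of -0.16 to 0.29. Apoa1 was at 4224 ± 523 and 4661 ± 1123 RPKM and its interval, -0.36 to 0.60, was wider. Apoc3 was at 1624 ± 168 and 2065 ± 397 RPKM, with a log2 fold change of 0.33 (interval -0.04 to 0.71, adjusted p = 0.126, limma). Relative to the median gene, the point estimates of Apob, Apoc2 and Apoa1 were -0.17, -0.17 and -0.11, so that their signs depended on the scaling, and that of Apoc3 was 0.098.

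The summed RPKM of the family was lower in hyperthyroid livers, 23011 ± 2150 compared with 33161 ± 3039 in hypothyroid WT livers (SD, n = 4 each). The 3 genes called lower together went from 14004 ± 2180 to 6172 ± 896 RPKM, Apoe, which was not called, went from 12396 to 8774 RPKM, and the other 6 genes together were at 6762 ± 634 and 8064 ± 1341 RPKM. The family then held 5.96% of the summed RPKM of all genes. The order at the top was Apoe, Apoa1, Apoa2, Apoc1 and Apoc3, with overlapping ranges for Apoa1 and Apoa2 and for Apoc1 and Apoc3.

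Transcripts of other cell types moved with the same comparison. All 7 macrophage markers measured were called higher in hyperthyroid livers (Adgre1, Clec4f, Vsig4, Timd4, Csf1r, Cd5l and Marco), with a median log2 fold change of 1.96, and their summed level was 43.57 to 62.35 RPKM in hypothyroid and 137.8 to 227.2 RPKM in hyperthyroid livers. Of 5 leukocyte markers, 3 were higher, and of 7 hepatocyte markers Ahsg was higher and Alb and Ttr were lower, beside 24.5% higher and 7.71% lower of all genes. The summed level of the hepatocyte markers was 37210 to 48970 RPKM in hypothyroid and 21680 to 28540 RPKM in hyperthyroid livers. Alb and Ttr carried that sum, and the other 5 hepatocyte markers together were at 5911 to 6335 RPKM in hypothyroid and 8725 to 9252 RPKM in hyperthyroid livers, the opposite direction. Of these 5, Ahsg, Fgb and Serpina1a had higher means in hyperthyroid livers. Cps1 and Ass1 had lower means there, 903 ± 156 and 342 ± 89.7 RPKM, compared with 1161 ± 16.8 and 484 ± 24.7 RPKM (SD, n = 4 each, not called). Without the third hyperthyroid library all 7 macrophage markers were still called, while Alb was not (adjusted p = 0.0159, limma) and 2 of the 5 leukocyte markers were. With median-of-ratios scaling Alb (0.0235) and Ahsg (0.0173) were not called, while Ass1 was called lower (adjusted p = 0.00872, limma). Of the markers of the enterocyte, in which Apoa4 is also made, Alpi was listed at 0 in all 8 libraries and Vil1 was at 0.045 ± 0.028 and 0.052 ± 0.04 RPKM (SD, n = 4 each), while Fabp2 was at 50.5 ± 6.02 RPKM in hypothyroid and 32.6 ± 7.44 RPKM in hyperthyroid livers (adjusted p = 0.0111, limma). The part of these cell types in the levels of the apolipoprotein genes was not tested.

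The second comparison asked whether the L-NCOR1ΔID mutation, in hypothyroid mice, moves the same genes without T3. None of the 10 genes was called by limma, and 2 of them, Apoa4 and Apob, had an unadjusted p under 0.05, beside 1.27% of 13790 genes called (0.725% higher and 0.544% lower) and 20.5% with an unadjusted p under 0.05.

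Apoa4 had the largest estimate. It was at 206, 151, 107 and 57.8 RPKM in the 4 mutant livers, compared with 44.1 to 67.7 RPKM in hypothyroid WT livers. Thus 3 of the mutant livers lay above all hypothyroid WT livers, and the fourth lay within their range. The log2 fold change was 1.06 ± 0.34 (SE, 95% interval 0.30 to 1.83) with an adjusted p of 0.119 (limma), and the SD of 63.2 RPKM in mutant livers was 48.5% of the mean, the widest relative spread of any of the genes in any group.

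Apob was at 474, 374, 445 and 518 RPKM in mutant livers and at 603, 523, 534 and 529 RPKM in hypothyroid WT livers. All mutant livers were lower, by a small margin in the case of the highest, with a log2 fold change of -0.28 ± 0.12 (SE, adjusted p = 0.211, limma). Apoa2 did not overlap either: it was at 6047, 7455, 7486 and 6952 RPKM in mutant livers, all under the lowest hypothyroid WT liver at 7830.4 RPKM, with a log2 fold change of -0.42 ± 0.21 (SE, adjusted p = 0.297, limma). The 2 genes without overlap compare with 13.1% of all genes tested (7.78% higher and 5.36% lower).

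The other 7 genes overlapped between mutant and hypothyroid WT livers. Apoc2 was at 189.6 ± 53.5 RPKM in mutant livers (log2 fold change 0.40, 95% interval -0.03 to 0.82) and Apoc3 at 1899 ± 223 RPKM (0.22, -0.09 to 0.54). For Apoa5, Apoc1, Apom, Apoa1 and Apoe the estimates lay between -0.28 and 0.18, with intervals that reached from -0.75 to 0.66, and changes of this size were not detectable here. The summed RPKM of the family was 31670 ± 4326 in mutant livers, 8.05% of all genes, next to 8.27% in hypothyroid WT livers.

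The values of the apolipoprotein genes were most spread among the mutant livers, a difference that was not tested. The median coefficient of variation of the 10 genes was 23.6% in the mutant group, compared with 11.9% in hypothyroid and 13.5% in hyperthyroid WT livers. Over 1066 genes of at least 50 RPKM the median was 12.5%, 7.51% and 11.7%. Mutant replicate 1 had the highest Apoa4 and the lowest Apoa1 (2419 RPKM), Apoa2, Apoc1, Apoc3 and Apom (94.5 RPKM) of its group. Replicate 4 had the lowest Apoa4, Apoa5 (369 RPKM), Apoc2 and Apoe and the highest Apob and Apom (215 RPKM). The summed macrophage markers were 73.78, 132.4, 59.6 and 48.26 RPKM in mutant replicates 1 to 4. The summed stellate cell markers were 105.9, 98.81, 60.84 and 72.26 RPKM in the same order. Among them the collagen gene Col3a1, at 15.6, 7.99, 3.89 and 2.14 RPKM, ranked the mutant livers as Apoa4 did. The sum and the stellate cell markers Lrat, Des and Reln did not rank the mutant livers in this way. Genes of other lists did, among them Pltp (93.5, 46.4, 37.7 and 18.8 RPKM) and Foxo1 (14, 13.6, 11.7 and 9.36 RPKM). The order of Col3a1 was thus not particular to stellate cell markers. The part of these cell types in this spread was not tested.

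**Figure D3:**
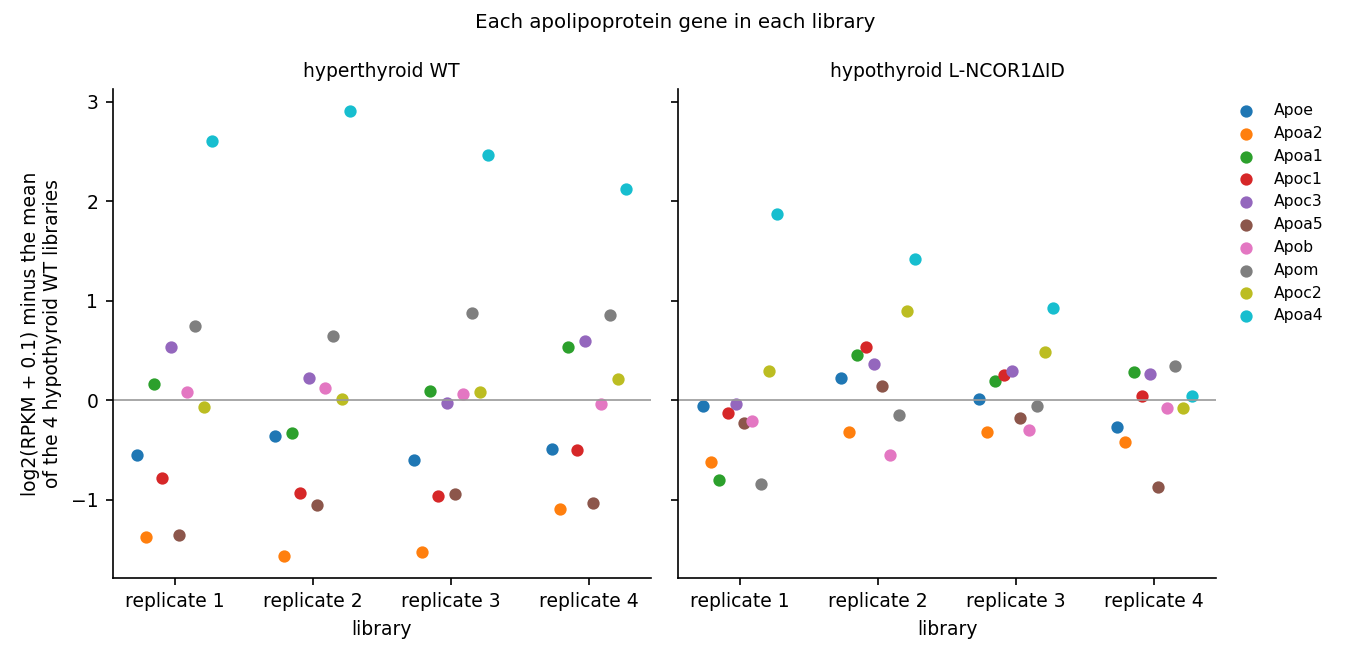
Difference of log2(RPKM + 0.1) of each apolipoprotein gene in each hyperthyroid WT library (left) and each L-NCOR1ΔID library (right) from the mean of the 4 hypothyroid WT libraries. In hyperthyroid livers Apoa4 lies at 2.13 to 2.90 and Apoa2 at -1.56 to -1.09, whereas Apoa4 spreads from 0.04 to 1.87 and Apom from -0.84 to 0.35 among the mutant livers.

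The third comparison set hyperthyroid WT directly against hypothyroid L-NCOR1ΔID livers, which tests whether the T3 effect and the mutant effect differ in size, as the shared hypothyroid WT livers drop out. Apom was called higher in hyperthyroid WT (log2 fold change 0.95 ± 0.22 SE, adjusted p = 0.0086, limma) and was the single gene of the 10 past the threshold, beside 21.2% of 14017 genes tested (15.5% higher and 5.7% lower). Apoa4, Apoa2, Apoa5 and Apoc1 lay just outside it, with log2 fold changes of 1.46, -0.97, -0.81 and -0.97 and adjusted p-values of 0.0109, 0.014, 0.014 and 0.011 (limma). For each of these 5 genes, and for Apob and Apoe, the 4 hyperthyroid livers did not overlap with the 4 mutant livers, 7 of 10 genes compared with 38.3% of all genes (28.7% higher and 9.57% lower).

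The calls of these 5 genes in the third comparison changed with the fit. In 1 fit over all 12 libraries, in which the groups share an estimate of the spread, all 5 were called, with adjusted p-values from 0.00164 to 0.0047 (limma). The Apom call was lost, with adjusted p-values from 0.0169 to 0.0265, on leaving out any one of the 4 hyperthyroid libraries or mutant replicate 2 or 3, where its log2 fold change ran from 0.92 to 0.999. Apoa4 was called on leaving out mutant replicate 1 or 4 (adjusted p = 0.00525 and 0.00954), and Apoa5 on leaving out mutant replicate 4 (0.00173). Directions of these 5 genes were the same in all 18 alternatives.

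**Figure D4:**
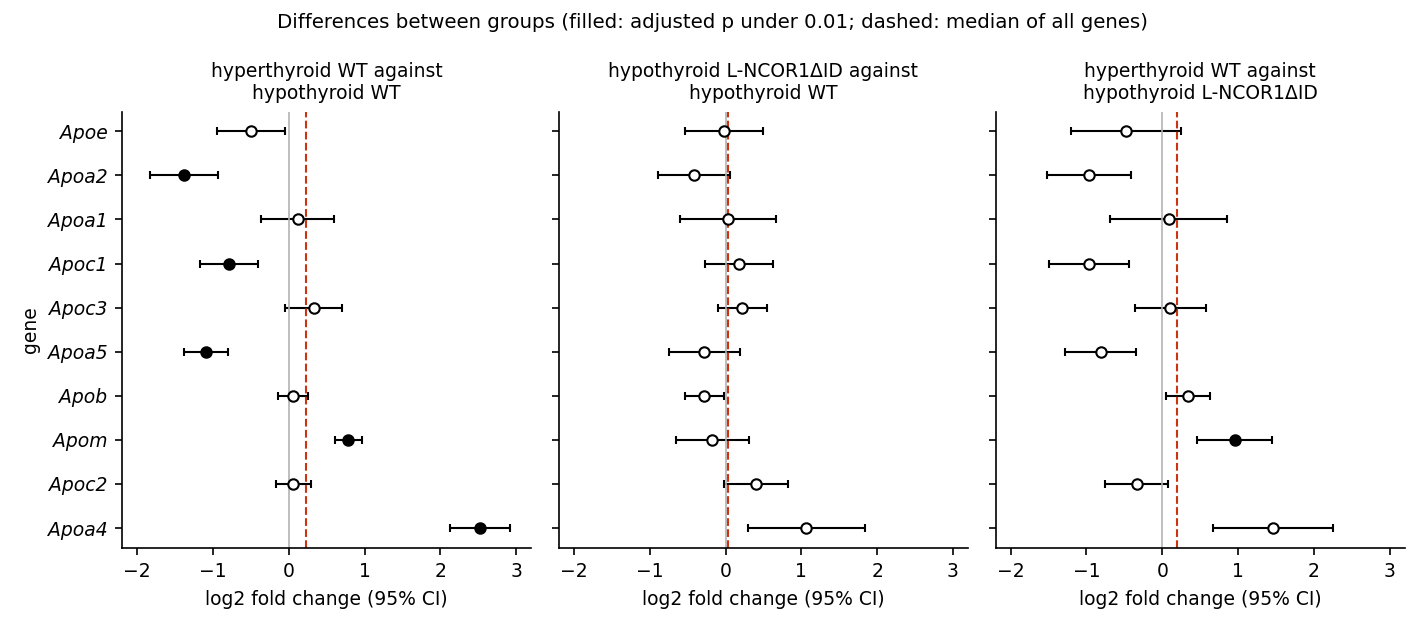
Log2 fold change (horizontal axis) of each apolipoprotein gene in the 3 comparisons, with 95% intervals, filled points for an adjusted p under 0.01 and the median of all genes as a dashed line (0.23, 0.03 and 0.19 from left to right). The 5 filled points of the left panel, Apoa4, Apom, Apoa2, Apoa5 and Apoc1, compare with none in the middle panel and Apom alone in the right panel.

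Genes of particle assembly were examined as the partners of Apob. Of 11 such genes, 5 were called higher and 1 lower in hyperthyroid livers, beside 24.5% and 7.71% of all genes. In mutant livers none of the 11 was called, beside 1.27% of all genes. Mttp, which loads lipid onto Apob, rose from 72.4 ± 8.84 to 147 ± 11.3 RPKM (SD, n = 4 each, log2 fold change 1.02, adjusted p = 6.86e-05, limma) while Apob itself was not called. Tm6sf2, which acts in VLDL lipidation, rose from 11.3 ± 2 to 26.7 ± 2.04 RPKM, and the cargo receptor Surf4 and Pla2g12b rose by 0.41 and 0.50 on the log2 scale. The latter 2 changes were 0.18 and 0.26 relative to the median gene, and with median-of-ratios scaling neither was called (adjusted p = 0.0375 and 0.0142, limma), so that 3 genes of the list were then higher and 3 lower. Without the third hyperthyroid library the list had 5 higher and 1 lower as before. Apobec1, the enzyme that edits Apob mRNA to the short Apob48 form, rose from 3.69 ± 0.75 to 8.69 ± 0.933 RPKM (log2 fold change 1.23, adjusted p = 2.24e-04, limma), and editing itself is not visible in a table of gene levels. In mutant livers Mttp was at 88.4 ± 18.7 RPKM and Tm6sf2 at 21.2 ± 4.51 RPKM, the latter without overlap with hypothyroid WT livers (log2 fold change 0.89, adjusted p = 0.0223, limma). Mutant and hypothyroid WT livers did not overlap for 13.1% of all genes tested.

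Among 11 genes of receptors and uptake, 5 were higher and 2 lower with T3, beside 24.5% and 7.71% of all genes. With median-of-ratios scaling the counts were 3 and 2, and without the third hyperthyroid library 4 and 2. Sort1, a sorting receptor that binds Apob, rose by 2.56 on the log2 scale, from 1.60 to 9.04 RPKM. Sdc1, the heparan sulfate receptor of Apoe-rich remnants, fell from 67.5 ± 13 to 29.7 ± 4.83 RPKM. None of the 11 genes was called in mutant livers, beside 1.27% of all genes.

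Of 11 lipases and remodelling genes, 1 rose and 2 fell with T3, a share near the 32.2% of all genes called in either direction. Endothelial lipase (Lipg), which acts on HDL phospholipid, rose from 5.34 ± 3.32 to 21 ± 2.73 RPKM. Hepatic lipase (Lipc) fell from 62 ± 2.86 to 38.7 ± 4.99 RPKM and Pon1, an enzyme carried on HDL, from 469 ± 67.8 to 177 ± 11.2 RPKM. None of this list was called in mutant livers, beside 1.27% of all genes.

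Of 8 tested genes of other apolipoproteins, Apof rose and Apol7a, Apol9b and Clu fell with T3, beside 24.5% higher and 7.71% lower of all genes. Without the third hyperthyroid library Apon was also called higher (adjusted p = 0.00756, limma). Apof, an inhibitor of cholesteryl ester transfer, went from 153 ± 31.9 to 439 ± 69.4 RPKM, and Clu (Apoj) from 714 ± 44.7 to 411 ± 42.4 RPKM. Apol7a was the 1 apolipoprotein gene outside the 10 of those tested that also changed in mutant livers, at 55.7 ± 5.61 RPKM in hypothyroid WT, 30.3 ± 2.89 RPKM in mutant and 8.62 ± 1.47 RPKM in hyperthyroid livers (adjusted p = 0.00197 and 3.01e-06 against hypothyroid WT, limma). Over all genes 1.27% were called in mutant livers. Of 23 transcription factors known to act on apolipoprotein genes, 5 rose and 2 fell with T3, a share about that of all genes (24.5% higher and 7.71% lower). With median-of-ratios scaling 2 were higher and 6 lower, and without the third hyperthyroid library 4 and 3. Those called were, among others, Hnf4a, the activator of most liver apolipoprotein genes, from 182 ± 18.1 to 243 ± 11.9 RPKM (0.19 on the log2 scale relative to the median gene, and not called with median-of-ratios scaling, adjusted p = 0.161, limma), Mlxipl from 79.5 ± 13.8 to 171 ± 14.6 RPKM and the repressor Nr0b2 (SHP) from 31.7 ± 3.21 to 15.1 ± 4.59 RPKM. Creb3l3, an activator of Apoa4 and Apoa5 in liver, and Nr1h4 (FXR) were lower in mutant livers, at 88.6 ± 8.95 and 39.3 ± 1.59 RPKM compared with 139 ± 7.85 and 60.6 ± 1.72 RPKM, beside 0.544% of all genes called lower. In hyperthyroid livers they were at 105 ± 16.7 and 48.4 ± 7.11 RPKM and were not called. With median-of-ratios scaling both were called lower with T3 (adjusted p = 0.000801 and 0.00543, limma). Without the third hyperthyroid library Creb3l3 was called (0.00613) and Nr1h4 was not (0.0573). Nr1d1 was not called in either comparison, and it was at 18.2, 18, 56.4 and 62.5 RPKM in mutant replicates 1 to 4. Its coefficient of variation was 61.9% there and 35.6% in hypothyroid WT livers.

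For the 5 genes called with T3, the 2 genes of most similar pattern over the 12 libraries were sought among 10662 others with a mean of at least 1 RPKM, by the root mean square difference of the centred log2 values. Apoa4 was nearest to Skil (0.31) and Ier5 (0.42), Apoa2 to A330093E20Rik (0.12) and 1810019D21Rik (0.16), and Apoa5 to Fdxr (0.15) and Acadm (0.16). Apoc1 was nearest to Pdk2 (0.14) and Ftl1 (0.15), and Apom to Usp4 (0.12) and Tab1 (0.17). The values were centred but not scaled, so that the distance grows with the size of a gene's differences. The distances of Apoa4, the gene with the largest differences, were the widest. None of the nearest genes was another apolipoprotein gene, but with 2 taken from 10662 this does not test likeness within the family.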

How the data were processed

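RNA was poly(A) selected from liver of 12 mice, 4 per group. RPKM values were deposited by the authors, who used STAR for alignment (mm9) and HOMER for quantification of RefSeq transcripts. The methods do not state whether strand was used, and the labels give runs on 2 instrument models for every library. The authors' merged region list, also deposited, holds coordinates only.

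From these files, 1 row without a gene name of 31370 was dropped and the first transcript per gene was used. Genes with 4 or more of the 8 libraries at 0.1 RPKM or above were tested with limma 3.58.1 (R 4.3.3, variance trend) on log2(RPKM + 0.1), with Benjamini-Hochberg adjustment over all genes and a call at an adjusted p under 0.01. A log2 fold change on this scale understates the change of low genes. The script was tested on simulated data. Named are the 10 genes, up to 4 called genes of at least 1 RPKM per list and comparison with the largest change, Mttp, Hnf4a, Nr1d1, Thrsp, Dio1 and Ncor1, and the 2 genes nearest in pattern to each called gene. Some genes that this rule names are not reported here. Prss2, Cpa1, Alpi, Apon, Vil1, Fabp2, Krt7, Fgb, Cps1, Ass1, Des, Reln and Pltp were named outside this rule, after their values were seen. Members and gene lists were chosen with earlier results of these data known. GENCODE M1 gave mm9 gene positions, and sequences were read from mm9. Alternatives were another pseudocount (1 or 0.01), filter, scaling, threshold, transcript, variance model, joint fit, a block by replicate number, and leaving out each library.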

Additional observations from a re-analysis of the deposited data

Results flagged for a closer look

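One of 30 groups of 4 livers (10 genes in 3 groups) held a liver far from the other 3: Apob was at 603 RPKM in hypothyroid WT replicate 1 and at 523 to 534 RPKM in the other 3 hypothyroid WT livers. Chance flags about 1 in 20 such groups, or 1.5 of 30.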

How the results depend on the processing

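Apoa4 and Apom higher and Apoa2 and Apoa5 lower with T3 were called under all 18 alternatives, with log2 fold changes of 2.29 to 2.66, 0.54 to 0.83, -1.63 to -1.30 and -1.33 to -1.01. None of the 10 genes was called in mutant livers by limma under any of these alternatives. Without a filter on low values Apoc1 was not called with T3 (adjusted p = 0.0216). In hyperthyroid WT against mutant livers, the apolipoprotein genes called higher and lower, 1 and 0 as reported, were 1 and 2 at a pseudocount of 0.01, 0 and 0 without a filter, 2 and 2 at a mean of at least 1 RPKM, 2 and 3 in 1 fit over 12 libraries or at an adjusted p under 0.05, 0 and 2 without a variance trend or with median-of-ratios scaling, and 0 to 2 and 0 to 1 on leaving out single libraries.

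Over all genes, the T3 calls, 3413 higher and 1075 lower, became 1716 and 1941 with median-of-ratios scaling and 5244 and 1636 at an adjusted p under 0.05. The calls in mutant livers, 100 higher and 75 lower, became 344 and 257 at an adjusted p under 0.05, 63 higher without a variance trend and 118 lower in 1 fit over 12 libraries, and ran from 36 to 110 and from 28 to 77 on leaving out single libraries. For hyperthyroid WT against mutant livers, 2176 higher and 799 lower became 1048 and 1293 with median-of-ratios scaling, 3995 and 1412 at an adjusted p under 0.05, and 1182 to 1905 and 469 to 767 on leaving out single libraries. The replicate numbers did not pair the livers: correlations of same-numbered deviations ran from -0.207 to 0.267, and those of different-numbered ones from -0.309 to 0.317. These limits all came from hypothyroid WT with mutant livers, and the source of this shared variation was not tested. A replicate block gave 20 higher and 25 lower genes in mutant livers and 1152 and 490 for hyperthyroid WT against mutant, and changed no call of an apolipoprotein gene with T3 or in mutant livers. In hyperthyroid WT against mutant livers the block added Apoa4 (adjusted p = 0.00534) and removed Apom (0.0128).

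Signs changed for uncalled estimates near 0. With median-of-ratios scaling, log2 fold changes with T3 were -0.12 for Apoa1, -0.18 for Apob and -0.18 for Apoc2, that of Apoa1 in mutant livers was -0.0081, and those in hyperthyroid WT against mutant livers were -0.11 for Apoa1 and -0.089 for Apoc3. On leaving out single libraries, the estimates with T3 ran from -0.020 to 0.27 for Apoa1 and from -0.012 to 0.12 for Apoc2, those in mutant livers from -0.11 to 0.31 for Apoa1, -0.10 to 0.061 for Apoe and -0.35 to 0.050 for Apom, and that of Apoa1 in hyperthyroid WT against mutant livers from -0.19 to 0.23. The cause was not tested. The median number of acetylated regions was 5 within 50 kb and 23.5 within 200 kb, beside 5 and 15 for the genes of at least 50 RPKM. The calls of the other gene lists without the third hyperthyroid library and with median-of-ratios scaling were added after the data were seen. The lowest value of the 10 genes rested on about 1376 reads per kilobase.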

Other observations

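Markers of further liver cell types were examined in the same table. In hyperthyroid against hypothyroid WT livers, 2 of 5 endothelial markers were called higher (Pecam1 and Lyve1) and none lower, and 3 of 6 stellate cell markers were higher (Lrat, Col3a1 and Dcn) and none lower. Over all genes 24.5% were called higher and 7.71% lower. Of 5 cholangiocyte markers Sox9 fell from 1.44 ± 0.177 to 0.837 ± 0.197 RPKM (SD, n = 4 each) and Krt7, under 1 RPKM in both groups, was called higher. Pecam1, Lrat, Dcn and Krt7 were not called with median-of-ratios scaling (adjusted p = 0.0528, 0.0151, 0.0332 and 0.0202, limma), and Pecam1 and Sox9 were not called without the third hyperthyroid library (0.0273 and 0.0152). None of these 16 markers was called in mutant livers by limma, beside 1.27% of all genes. Lyve1 was at 1.24 ± 0.34 RPKM in hypothyroid WT, 3.76 ± 0.957 RPKM in hyperthyroid WT and 5.08 ± 2.6 RPKM in mutant livers, the last with an adjusted p of 0.0422 (limma).

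Cela1, an elastase gene, was at 8.47 to 13.6 RPKM in hypothyroid WT livers, 68.4 to 83.2 RPKM in 3 of the hyperthyroid livers and 243 RPKM in the third hyperthyroid library, the one with pancreatic Prss2 and Cpa1 transcripts. It was at 3.82 to 8.42 RPKM in mutant livers.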
